A study of Bos taurus with 31 samples.

Results

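The comparison concerned the combined effect of 2 maternal feeding factors on the liver of the bovine fetus. Its members were chosen by treatment label alone: the 7 fetal livers labelled VTM_MG and the 8 labelled NoVTM_LG, 15 of the 31 libraries in the series. All fetuses were female, were collected on day 83 of gestation, and came from Angus-cross heifers bred by artificial insemination to 1 sire. NoVTM_LG dams had the basal ration, which was aimed at a low gain of 0.28 kg per day, and no vitamin and mineral supplement. VTM_MG dams received 0.45 kg daily of vitamin-mineral premix plus ground corn carrier, starting between 71 and 148 days ahead of insemination. From then on a starch-based supplement of protein and energy was added to their ration, aimed at a moderate gain of 0.79 kg daily. The 2 groups thus differed in both factors at once, and also in the corn that carried the premix unless the NoVTM dams were given it too, which the labels do not say. The groups with a single factor, VTM_LG and NoVTM_MG (8 fetuses each), show how the combined difference was made up.

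The fetal liver at this stage carries out hepatic metabolism and plasma protein secretion and is also a site of blood cell formation. Maternal vitamins, trace minerals and energy reach it through the placenta and umbilical vein. Several of these nutrients act there as enzyme cofactors or ligands of nuclear receptors. In RNA of whole tissue, fewer cells of a type and less RNA per cell cannot be told apart. The files do not pair the Ensembl identifiers with gene names, and 0 of 27607 could be matched to a symbol in the RefSeq table at hand. The genes below therefore stand by identifier, with no statement of function or position, and the tissue label could not be checked against liver markers.

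The 15 libraries held 13698215 to 15762924 counts, and the ranges of library composition overlapped between the 2 groups. The 10 most abundant genes of the series took 29.59% to 35.31% of the counts in VTM_MG and 31.51% to 34.94% in NoVTM_LG. Between 17279 and 17801 genes had at least 1 count in a VTM_MG library, and between 17315 and 17699 in a NoVTM_LG library. By overall distance, fetuses of different groups were no further apart than fetuses within a group. Over 56 pairs of 1 fetus from each group, the median root-mean-square distance in log2 CPM was 0.445, against 0.453 over 28 pairs within NoVTM_LG and 0.449 over 21 pairs within VTM_MG. CPM here is the count of a gene divided by its library's size in the usual CPM unit, with sizes adjusted for composition by TMM.

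On the first principal component of the 15 libraries, which carried 13.7% of the variance, VTM_MG spanned -21.6 to 23.2 and NoVTM_LG -22.3 to 10.2. The groups overlapped over most of that axis. On the second component, with 8.82% of the variance, VTM_MG spanned -19.6 to 5.61 and NoVTM_LG -14.2 to 22.7, with means of -4.79 ± 8.73 (SD, n = 7) and 4.19 ± 12.1 (SD, n = 8). The difference in means on the second component had p = 0.128 in a two-sided exact permutation test and an adjusted p of 0.933 over the 9 library measures compared. That was the smallest unadjusted p among these measures. They comprised depth, scaling factor, genes with a count, share of the most abundant gene, share of the 10 most abundant, genes at least 2-fold above or below their median, and both components.

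**Figure D1:**
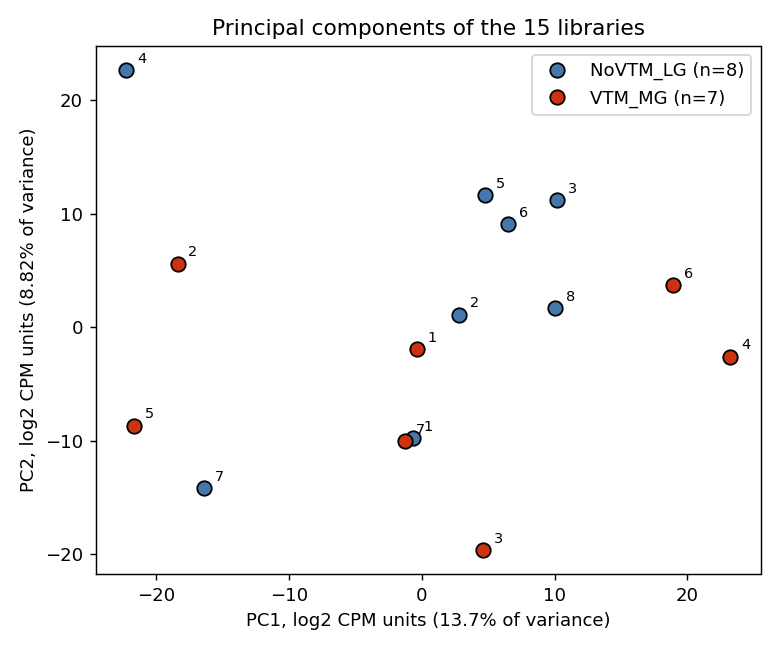
First against second principal component of log2 CPM for the 15 libraries, with 1 point per fetus numbered by replicate; blue is NoVTM_LG and red is VTM_MG. The groups overlap on both axes.

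No gene passed the test between VTM_MG and NoVTM_LG. Of 14228 genes tested with the quasi-likelihood test of edgeR, 0 had an adjusted p under 0.05 (0% called), and the smallest adjusted p was 0.34. An unadjusted p under 0.05 was found for 405 genes (2.85%), of which 226 (1.59%) were lower and 179 (1.26%) were higher in VTM_MG. With no change in any gene, 711.4 genes (5%) would be found on average. Smaller p-values were also few: 76 genes had p under 0.01, against 142.3 on average with no change, and 3 had p under 0.001, against 14.2. The biological coefficient of variation, the spread between fetuses of a group beyond counting error, was 13.2% in NoVTM_LG and 14.4% in VTM_MG. It was 14.5% in NoVTM_MG and 19.4% in VTM_LG, which also entered the estimate of spread, pooled to 15.6%. With the 15 compared libraries alone in the fit, 577 of 13792 genes (4.18%) had an unadjusted p under 0.05 and 0 passed.

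Other tests on the same genes gave at most 1 call. DESeq2 called 1 gene (0.00703% of those tested), ENSBTAG00000012855, lower in VTM_MG, and had 417 genes at an unadjusted p under 0.05. The limma voom test with quality weights called 0 and had 722 (5.07%), and its smallest adjusted p was 0.253.

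Most fold changes were small. The median log2 fold change over all 14228 genes was 0.000725, and the median of its absolute value was 0.0688. For 95% of genes the absolute log2 fold change was at most 0.352. Fitted changes above 1.5-fold in either direction were seen for 198 genes and above 2-fold for 27, none of which passed. Of these 27 genes, 10 were higher and 17 lower in VTM_MG, and 10 averaged under 1 CPM. After removal of the highest library from the higher group, the ratio of means still exceeded 2 in 8 of the 27. Such a removal can only lower the ratio, so this count does not show how many changes rested on 1 library.

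The intervals show what size of change the fit of all 31 libraries allows between the 2 groups, with a spread pooled over the 4 groups. An interval (95%) that stayed inside 1.2-fold in both directions was found for 39% of genes, inside 1.5-fold for 80.9% and inside 2-fold for 95%. Precision followed abundance. Among the 1196 genes over 100 CPM, 76.1% had an interval within 1.2-fold and 98.6% within 1.5-fold, with a median standard error (SE) of 0.081 on the log2 scale. Of the 7253 genes between 10 and 100 CPM, 60.5% had an interval within 1.2-fold. That share was 5.35% for the 4744 genes between 1 and 10 CPM and 0% for the 1035 genes under 1 CPM, whose median SE was 0.341. For the least abundant class, 58.3% of intervals lay within 2-fold, so changes of that size are not excluded for the rest of these genes. Among genes over 100 CPM, 17 (1.42%) had an unadjusted p under 0.05, against 40 (3.86%) under 1 CPM.

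**Figure D2:**
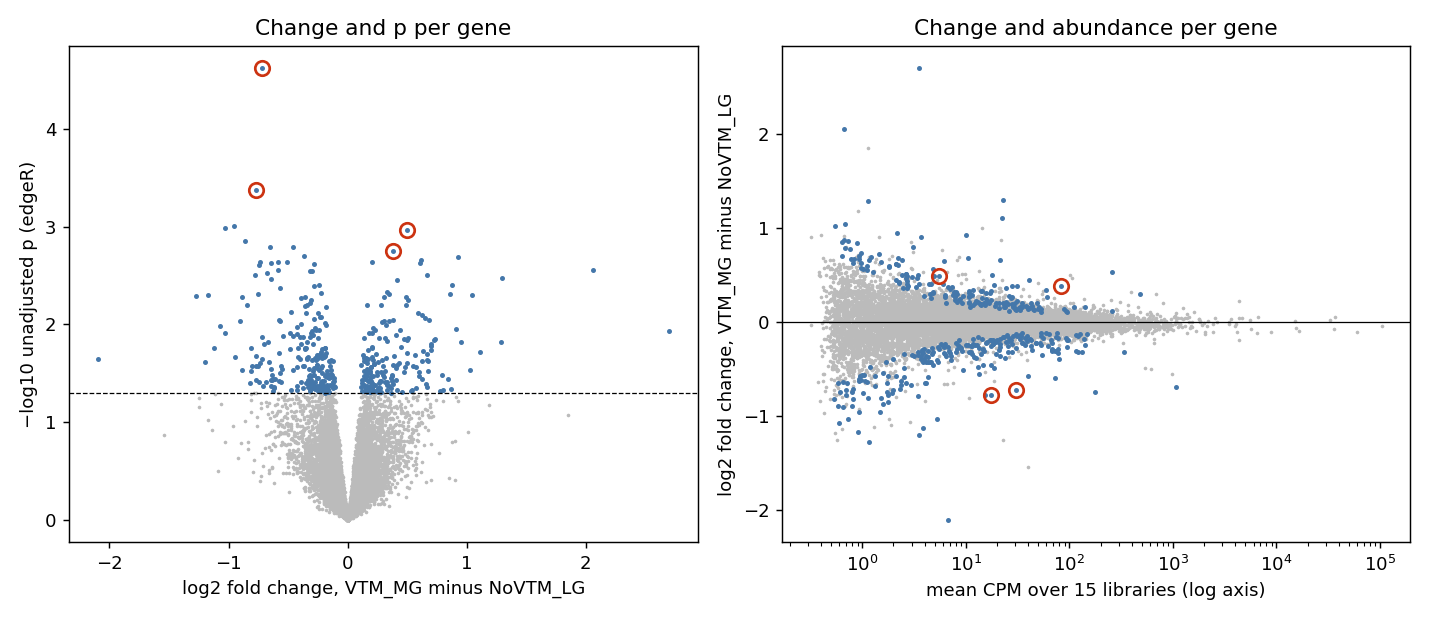
Left, log2 fold change of VTM_MG minus NoVTM_LG against −log10 of the unadjusted edgeR p for 14228 genes, with a dashed line at the 0.05 level; right, mean CPM over the 15 libraries (log axis) against the same log2 fold change. Blue points are the 405 genes past that line, grey the rest, and red circles the 4 genes described by identifier; changes narrow towards zero as abundance rises.

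The 2 genes with the smallest p in each direction were examined by library. They were picked on these same libraries, so their fold changes, intervals and separation are descriptive and may overstate a difference. ENSBTAG00000012855 had the smallest p of all genes. It ranged from 24.6 to 50.6 CPM in NoVTM_LG, with a median of 33.7, and from 18.4 to 30 CPM in VTM_MG, with a median of 22. The groups overlapped through few libraries: 6 of 7 VTM_MG fetuses lay below every NoVTM_LG fetus, and 7 of 8 NoVTM_LG fetuses lay above every VTM_MG fetus. NoVTM_LG replicate 7 was the lowest of its group and VTM_MG replicate 1 the highest. The mean was 22.5 ± 3.98 CPM over VTM_MG (SD, n = 7) against 37.2 ± 9.32 CPM over NoVTM_LG (SD, n = 8). The edgeR log2 fold change was -0.72 (SE 0.148, 95% interval -1.02 to -0.42), with an adjusted p of 0.34. In DESeq2 the adjusted p was 0.0188 at a log2 fold change of -0.72. Leaving out 1 compared library at a time gave edgeR log2 fold changes of -0.80 to -0.64. The adjusted p stayed above the threshold each time, nearest without NoVTM_LG replicate 7, at 0.0642.

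ENSBTAG00000047175 had the second smallest p. It ranged from 15.8 to 26.7 CPM in NoVTM_LG, with a median of 21.5, and from 6.29 to 17 CPM in VTM_MG, with a median of 14.8. Here too 6 of 7 VTM_MG fetuses lay below all of NoVTM_LG, and 7 of 8 NoVTM_LG fetuses above all of VTM_MG. The VTM_MG values fell into a wider span than those of the other group in proportion to their mean, with replicate 2 the lowest. The edgeR log2 fold change was -0.77 (SE 0.197, 95% interval -1.17 to -0.37), with an adjusted p of 1 and an unadjusted p of 0.000424.

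Among genes with higher values in VTM_MG, ENSBTAG00000000460 had the smallest p. It ranged from 3.21 to 5.74 CPM in NoVTM_LG, with a median of 4.58, and from 5.02 to 8.89 CPM in VTM_MG, with a median of 6.14. In 6 of 7 VTM_MG fetuses it exceeded every NoVTM_LG value, and the exception was VTM_MG replicate 5. The edgeR log2 fold change was 0.49 (SE 0.138, 95% interval 0.21 to 0.78), with an adjusted p of 1 and an unadjusted p of 0.00109.

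ENSBTAG00000006921 came next among genes with higher values. It ranged from 57.6 to 88 CPM in NoVTM_LG, with a median of 71.9, and from 65.2 to 108 CPM in VTM_MG, with a median of 100.5. Of the 7 VTM_MG fetuses, 5 lay above all of NoVTM_LG, while VTM_MG replicate 2, the lowest, was below the NoVTM_LG median. The edgeR log2 fold change was 0.38 (SE 0.112, 95% interval 0.15 to 0.61), with an adjusted p of 1 and an unadjusted p of 0.00177.

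**Figure D3:**
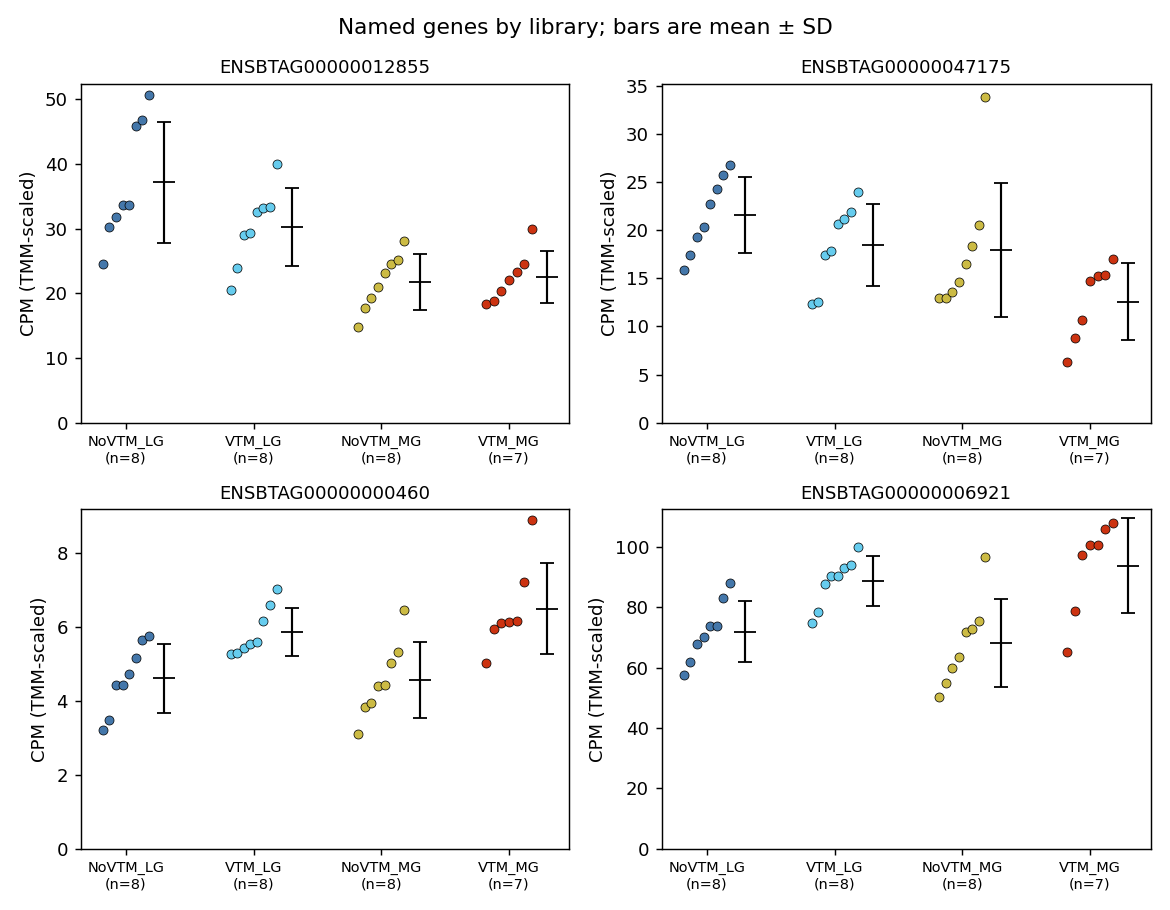
CPM (vertical axes, from 0) of the 4 genes in each of the 4 groups, with 1 point per fetus placed in order of value and bars for mean ± SD. The upper genes lie lower in VTM_MG than in NoVTM_LG and the lower genes lie higher, with overlap in all 4, and NoVTM_MG replicate 6 stands at 33.8 CPM for ENSBTAG00000047175.

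Few genes separated the 2 groups fully. In 3 of 14228 genes (0.0211%) the CPM ranges did not meet, 2 with every VTM_MG fetus above (0.0141%) and 1 with every VTM_MG fetus below (0.00703%). The gene that lay below spanned 0.426 to 0.844 CPM in VTM_MG and 0.955 to 1.57 CPM in NoVTM_LG, a gap of 0.112 CPM (edgeR log2 fold change -0.95, adjusted p = 1). The genes that lay above were separated by 0.145 and 0.285 CPM. One spanned 22.3 to 27.8 CPM in VTM_MG and 20.4 to 22.2 CPM in NoVTM_LG, and the other 8.41 to 9.38 and 7.08 to 8.12 CPM. Their edgeR log2 fold changes were each 0.21. These genes were picked out after their values were seen. How many genes would separate with no change in any gene was not worked out. All 3 gaps were smaller than the SD within either group, and none of the 3 is among the 4 genes above.

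In a factorial design the combined difference splits into 2 parts: the effect of the supplement averaged over gain, and the effect of gain averaged over the supplement. On the log2 scale the parts add up to the difference between VTM_MG and NoVTM_LG. They use all 31 libraries, the 15 compared ones included, and so are not independent of it. Over all genes in edgeR, 0 passed for the supplement part (0% called, with 412 genes, or 2.9%, at an unadjusted p under 0.05). For the gain part 3 passed (0.0211%), all lower at moderate gain, with 1113 genes (7.82%) at an unadjusted p under 0.05. In a fit that left out VTM_LG replicates 4 and 7, which stood at 63 and 37.9 on the first principal component of the whole series while the other 29 libraries lay between -20.2 and 6.69, that number was 706 of 14278 genes (4.94%), and 3 genes passed.

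ENSBTAG00000012855 had the larger of its parts on the side of gain. The gain part was -0.60 (95% interval -0.81 to -0.39, adjusted p = 0.0205 in edgeR), so that this gene fell at moderate gain. Its supplement part was -0.12 (95% interval -0.33 to 0.084, adjusted p = 1). The single-factor groups stood at 30.2 ± 6.06 CPM for VTM_LG (SD, n = 8) and at 21.8 ± 4.33 CPM for NoVTM_MG (SD, n = 8). VTM_MG and NoVTM_MG, both at moderate gain, thus differed by less than the SD of either. At low gain, VTM_LG lay below NoVTM_LG, whose mean was 37.2 ± 9.32 CPM (SD, n = 8). That gap was larger than the SD of VTM_LG and smaller than the SD of NoVTM_LG. Neither of these supplement differences at a single level of gain was tested here.

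For ENSBTAG00000047175 the parts were -0.41 for gain (95% interval -0.68 to -0.13) and -0.36 for the supplement (95% interval -0.64 to -0.088). Neither passed in edgeR, with adjusted p-values of 0.562 and 1. Both single-factor groups had means between the ends, at 18.5 ± 4.28 CPM for VTM_LG (SD, n = 8) and at 17.9 ± 6.97 CPM for NoVTM_MG (SD, n = 8). NoVTM_MG replicate 6, at 33.8 CPM, lay far above the other 7 fetuses of its group, whose mean was 15.6 ± 2.91 CPM (SD, n = 7). Without it, a fit chosen after seeing the data, the gain part was -0.50 and the supplement part -0.27, with edgeR adjusted p-values of 0.228 and 0.991.

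The other 2 genes had the larger part on the side of the supplement. ENSBTAG00000000460 had a supplement part of 0.43 (95% interval 0.23 to 0.62, adjusted p = 0.34 in edgeR) and a gain part of 0.067 (95% interval -0.13 to 0.26). Its mean was 5.86 ± 0.655 CPM for VTM_LG (SD, n = 8) and 4.56 ± 1.03 CPM for NoVTM_MG (SD, n = 8), beside 6.5 ± 1.24 CPM for VTM_MG (SD, n = 7) and 4.6 ± 0.924 CPM for NoVTM_LG (SD, n = 8). ENSBTAG00000006921 had a supplement part of 0.38 (95% interval 0.22 to 0.54, adjusted p = 0.189 in edgeR) and a gain part of 0.00092 (95% interval -0.16 to 0.16). Its mean was 88.7 ± 8.29 CPM for VTM_LG (SD, n = 8) and 68.2 ± 14.6 CPM for NoVTM_MG (SD, n = 8), beside 93.7 ± 15.8 CPM for VTM_MG (SD, n = 7) and 72 ± 10.1 CPM for NoVTM_LG (SD, n = 8). Neither supplement part passed the threshold in edgeR, and these parts are not reported here for DESeq2 or limma voom. At the adjusted threshold, that 1 part was larger than the other was not shown for any of the 4 genes. The supplement part minus the gain part, which equals VTM_LG minus NoVTM_MG, had adjusted p-values of 0.373 to 0.96 in edgeR. Its unadjusted edgeR p was 0.0014 for ENSBTAG00000006921, 0.0021 for ENSBTAG00000012855, 0.0114 for ENSBTAG00000000460 and 0.819 for ENSBTAG00000047175.

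**Figure D4:**
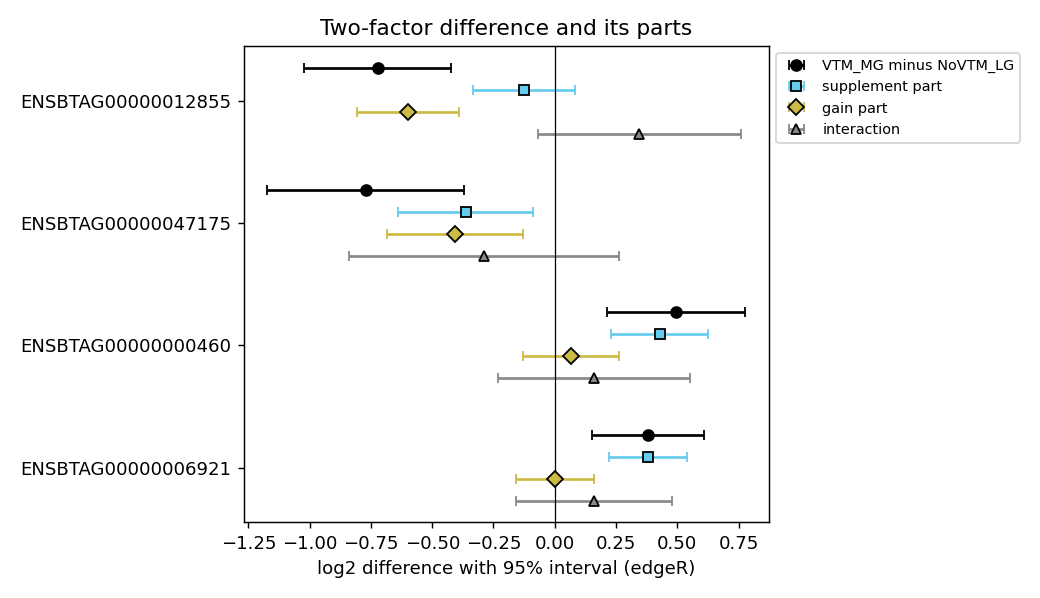
Log2 differences with 95% intervals (horizontal axis) for the 4 genes: VTM_MG minus NoVTM_LG (black circles), the supplement part (light blue squares), the gain part (yellow diamonds) and the interaction (grey triangles). The gain part of ENSBTAG00000012855 and the supplement parts of ENSBTAG00000000460 and ENSBTAG00000006921 lie nearest to the combined difference, and all 4 interaction intervals include 0.

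Whether the factors added up was asked with the interaction, the supplement effect at moderate gain minus that at low gain. No gene passed in edgeR (0% called, smallest adjusted p = 0.431), and 1516 genes (10.7%) had an unadjusted p under 0.05. This count was 920 of 14278 genes (6.44%) without the same 2 VTM_LG libraries. Of the 405 genes at an unadjusted p under 0.05 between VTM_MG and NoVTM_LG, 44 (10.9%) also had an interaction p under 0.05, a share near the 10.7% of all genes. For ENSBTAG00000012855 the interaction was 0.35 on the log2 scale (95% interval -0.069 to 0.76, adjusted p = 0.542 in edgeR). The interval for ENSBTAG00000047175 was -0.84 to 0.26, that for ENSBTAG00000000460 was -0.23 to 0.55, and that for ENSBTAG00000006921 was -0.16 to 0.48. A departure from additivity within these bounds is not excluded.

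The other pair of groups that differs in both factors, VTM_LG against NoVTM_MG, shares no library with VTM_MG against NoVTM_LG. Per gene, the difference between these 2 comparisons equals 2 times the gain part, so the gain test above is also the test of that difference. ENSBTAG00000012855 passed it: the log2 fold change was -0.72 in VTM_MG minus NoVTM_LG and 0.47 in VTM_LG minus NoVTM_MG (adjusted p of the difference 0.0205 in edgeR). ENSBTAG00000047175 stood at -0.77 and 0.043, a difference that did not pass (adjusted p = 0.562 in edgeR). ENSBTAG00000000460 stood at 0.49 and 0.36, and ENSBTAG00000006921 at 0.38 in both, with adjusted p-values of the difference of 0.863 and 0.998 in edgeR.

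Taken over genes, which do not count as replicates, the 2 sets of log2 fold changes had a correlation of -0.0911 over 14228 genes, and of -0.0034 over 14278 genes without VTM_LG replicates 4 and 7. With all libraries, 65 genes had an unadjusted p under 0.05 in both comparisons, 14 in the same direction and 51 in opposite directions. They made up 16% of the 405 genes in VTM_MG against NoVTM_LG and 5.11% of the 1272 genes in VTM_LG against NoVTM_MG. The share of all tested genes to set beside the 16% is 8.94%, and beside the 5.11% it is 2.85%. Without the 2 libraries there were 44 such genes, 12 in the same direction and 32 in opposite directions. They made up 8.04% of 547 genes and 6.75% of 652 genes, beside 4.57% and 3.83% of all genes tested in that fit. No test of the overlap was made.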

How the data were processed

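Liver RNA was sequenced from strand-specific libraries in 150 bp read pairs, per the labels' protocols. The values deposited by the authors are raw counts for each gene, without normalization. The aligner STAR (2.7.3a) and edgeR are listed in the submitters' processing notes, beside CASAVA, FastQC (0.11.8) and MultiQC (1.9). Build, annotation, counter and strand setting are not given in the sources consulted, so reads shared between similar, overlapping or antisense genes could not be assessed. Columns were matched to samples by title and groups came from the treatment label. Replicate numbers follow sample order and are names only. The labels tie no sample to a batch or to 1 of the 7 breeding groups.

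Genes were filtered by filterByExpr on the 4 groups (minimum count 10, minimum total 15), scaled by TMM, and fitted with all 31 libraries and 1 mean per group in edgeR 4.0.16 (R 4.3.3). P-values were adjusted over all 14228 genes by the Benjamini-Hochberg method. SEs came from the fold change and its F statistic. Distances and components used log2 CPM with a prior count of 2. DESeq2 1.42.0 and limma 3.58.1 were alternatives. Total counts over the series ranged from 13062894 to 18458776. No 2 of the 15 libraries matched within sampling noise: over 105 pairs the chi-square per degree of freedom was at least 6.89. The series' design gives 35 heifers assigned and 31 samples after quality control. The labels do not tie samples to single heifers, and each library was taken as the fetus of a separate heifer. The procedure was tested on simulated data.

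The comparison, the lists and the tests were chosen with earlier results of these data known. As 0 identifiers had a symbol, 33 gene lists could not be applied. The rule for named genes then gave the 2 identifiers with the smallest p in each direction. The 3 genes with non-overlapping groups fall outside it.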

Additional observations from a re-analysis of the deposited data

Results flagged for a closer look

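In 34 sets of values, each a gene or library measure within 1 group, 2 held a value set far apart from the rest by Dixon's criterion, which chance meets in about 1 of 20 sets. ENSBTAG00000047175 reached 33.8 CPM in NoVTM_MG replicate 6, where the next highest fetus of that group stood at 20.5 CPM. This library enters the parts of the combined difference but not the difference between VTM_MG and NoVTM_LG itself. Without it the gain part of this gene moved from -0.41 to -0.50 and the supplement part from -0.36 to -0.27. VTM_MG replicate 4 had 17801 genes with at least 1 count, against 17501 in the next highest of its group.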

How the results depend on the processing

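The count of 0 genes past the threshold between VTM_MG and NoVTM_LG held in 23 of 24 other settings, and was 1 in DESeq2. Among these, a minimum absolute log2 fold change of 1 could not raise the main count. The setting at an adjusted p under 0.10 reused the main fit, whose smallest adjusted p was 0.34. The count stayed 0 when each of the 15 compared libraries was left out in turn. The number of genes at an unadjusted p under 0.05 was 356 to 497 in those fits. It rose from 405 to 845 (of 21921 tested) without a low-count filter and to 722 in limma voom. The 15 libraries fitted alone gave 300 higher and 277 lower genes, against 179 and 226. The 4 named genes held their direction in all 22 settings in which they were fitted, and ENSBTAG00000012855 passed only in DESeq2. These genes were picked by p and direction in largely the same libraries, so the held direction is no independent support. The interaction gave 0 calls in all 6 settings. The supplement part gave 3 calls in DESeq2, 2 in limma voom and 1 without VTM_LG replicates 4 and 7, against 0. The gain part's 1113 genes at an unadjusted p under 0.05 became 706 without those 2 libraries. The gain part gave 9 calls in DESeq2 and 5 in limma voom, against 3. The cause of these differences was not tested. No paired analysis was possible because the labels carry no replicate numbers that link groups. Precision was lowest for genes under 1 CPM.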
